A study of Mus musculus with 6 samples.

Results

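In all, 10 long noncoding RNAs were followed after lamin A/C knockdown in E0771 cells, a C57BL/6 mouse breast adenocarcinoma line. They are Malat1 and Neat1, which stay in the nucleus, Kcnq1ot1, an imprinted nuclear antisense RNA, and Gas5, Snhg1, Snhg3, Snhg5, Snhg6, Snhg8 and Snhg12, which carry small nucleolar RNAs (snoRNAs) in their introns or exons. They were picked by name, with earlier results of these data known. Their names were matched exactly to the gene symbols of the count table, and 9 of the 10 were found among 10520 genes. Kcnq1ot1 was not analysed here.

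The cells carried either the shControl vector or the shLmna vector, both delivered by lentivirus and followed by puromycin selection, and were expanded after it, with no cloning step described. By the study's methods the shControl vector was an empty vector, so the controls hold no unrelated hairpin. Titles in the knockdown group say shRNA4 where the genotype says shLmna, and the hairpin meant by this is not given in the sources used here. Each group had 3 libraries made by MARS-seq, a 3′ end method for poly(A)-selected RNA in which a random tag, the unique molecular identifier (UMI), lets amplified copies of 1 captured molecule be counted as 1. Libraries held 1846208 to 3242051 UMIs, and the 2 groups took up separate, neighbouring plate positions, so the effect of position cannot be told apart from that of the knockdown. Nothing in the labels says that the libraries of a group came from separate cultures, and the p-values then measure only the spread between these libraries.

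The knocked-down gene was low in each library labelled shLmna. Lmna had normalised counts of 2013, 2170 and 2325 in the shControl libraries against 964, 933 and 942 in the shLmna libraries, a log2 fold change of -1.20 ± 0.13 (SE, n = 3 per group) with an edgeR adjusted p of 3.55e-05. Normalised counts here are UMIs divided by the TMM scaling of each library, fold changes are shLmna over shControl, and the adjusted p is that of the quasi-likelihood test in edgeR, after Benjamini-Hochberg correction over all 8969 genes tested. Of the 8 listed carcinoma markers, 2 were absent from the table and 5 were tested. None passed in edgeR, DESeq2 or limma-voom on the full counts. In edgeR, 1 passed as lower with counts thinned to the smallest library, and 1 without shLmna replicate 2. Krt8 had a mean of 686 in shControl and 722 in shLmna, and Vim had 12991 and 14739. The other 3 went the other way, Krt18 with 17.3 and 11.3, Cd44 with 228 and 205 and Epcam with 33.9 and 17.6. Epcam, low in both groups, was the 1 marker with an unadjusted p under 0.05. Of the other cell types, the 6 listed leukocyte markers summed to 38.1 to 42.9 in shControl and 45.6 to 60.5 in shLmna, with 4 of the 6 absent from the table, Ptprc among them. Lyz2 was higher in shLmna (14.9 against 36.4, edgeR adjusted p = 0.011, lost at 0.052 without shControl replicate 1), and Cd68, the other leukocyte marker tested, had 25.2 in shControl and 16.1 in shLmna (adjusted p = 0.234). The endothelial and fibroblast markers together summed to 16.3 to 34.3 per library.

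As background, Malat1 is a very abundant RNA of nuclear speckles, the bodies in which splicing factors gather, and Neat1 is the scaffold of paraspeckles, nuclear bodies that hold RNA-binding proteins. The 3′ ends of Malat1 and of the long form of Neat1 are cut by RNase P and protected by a triple helix in place of a poly(A) tail, whereas the short form of Neat1 is polyadenylated. The snoRNA hosts work differently. Their introns release snoRNAs, which guide methylation and pseudouridylation of ribosomal RNA, and their spliced exons are mostly unstable. Many hosts begin with a run of pyrimidines (5′ terminal oligopyrimidine, 5′TOP), like ribosomal protein mRNAs, and are engaged by ribosomes and degraded by nonsense-mediated decay. UMIs at the 3′ end count the host RNA and not the snoRNAs.

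The sequences that the counting of the nuclear RNAs rests on are shown here, from GRCm38 with GENCODE M21 transcripts, 5′ to 3′ on the strand of the gene. The first stretch lies inside the annotated Malat1 gene, at chr19:5795968-5796089 on the minus strand. It holds, in capitals, the run of 12 A that starts 310 bases before the annotated end. Internal here means upstream of that annotated end. The run is followed by GCAAAA, the letters that also close the long form of Neat1 below. Where the Malat1 RNA ends in these cells was not tested. Such a run can be bound by an oligo(dT) primer, and 4.86% of the counted ends of all genes hold an A run of 12 or more, against a median longest run of 5.
Malat1 internal A run: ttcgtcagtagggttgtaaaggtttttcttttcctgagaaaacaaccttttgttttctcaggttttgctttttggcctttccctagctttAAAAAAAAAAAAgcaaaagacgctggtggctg
The next 3 stretches are the last 60 bases of the Malat1-201 transcript at chr19:5795690-5795749, of the short Neat1-202 at chr19:5842307-5842366 and of the long Neat1-201 at chr19:5824708-5824767, all on the minus strand, with a polyadenylation signal in capitals in the first pair and the A-rich end in capitals in the last.
Malat1-201 end: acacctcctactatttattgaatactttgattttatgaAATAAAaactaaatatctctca
Neat1-202 end: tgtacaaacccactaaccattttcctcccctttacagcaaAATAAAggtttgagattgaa
Neat1-201 end: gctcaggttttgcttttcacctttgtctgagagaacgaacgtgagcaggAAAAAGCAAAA
The deposited table has 1 row per gene, so the forms of Neat1 cannot be told apart, and which Neat1 end was counted is not given in the sources used here.

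Of the 9 long noncoding RNAs tested, 6 fell past an adjusted p of 0.05, Malat1, Neat1, Gas5, Snhg1, Snhg5 and Snhg12, and 3 did not pass, Snhg3, Snhg6 and Snhg8. None rose. Among all 8969 tested genes, 518 passed in the lower direction (5.78%) and 714 in the higher direction (7.96%), against 66.7% of these 9 in the lower direction. All 9 log2 fold changes were negative with a median of -0.76, while the median of all tested genes was 0.0033 and 49.6% of them were negative. In 7 of the 9, all but Snhg3 and Snhg6, every shLmna library lay below every shControl library, which held in that direction for 15.7% of tested genes. By the stricter criteria of the study's methods (mean normalised count above 5, absolute log2 fold change above 1 and adjusted p below 0.05), Snhg1 alone was differentially expressed, against 1.74% of tested genes that were so in the lower direction. The RNAs were chosen with earlier results of these data known, so these shares describe them and are no independent test.

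Together the 9 RNAs took a smaller share of each shLmna library. In shControl they made up 0.144%, 0.154% and 0.147% of all UMIs, replicate by replicate, while in shLmna they made up 0.0908%, 0.0864% and 0.113%, so the groups did not overlap. The means were 0.149% ± 0.00495 and 0.0967% ± 0.0142 (SD, n = 3), and a two-sided exact permutation test gave p = 0.1, the smallest that 3 libraries against 3 allow. With the RNAs chosen when earlier results of these data were known, this p is a description and no independent test. Leaving out any 1 library moved the difference between -0.060 and -0.0467 percentage points. Since these are bulk samples, less RNA per cell and fewer cells that hold it cannot be told apart.

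**Figure D1:**
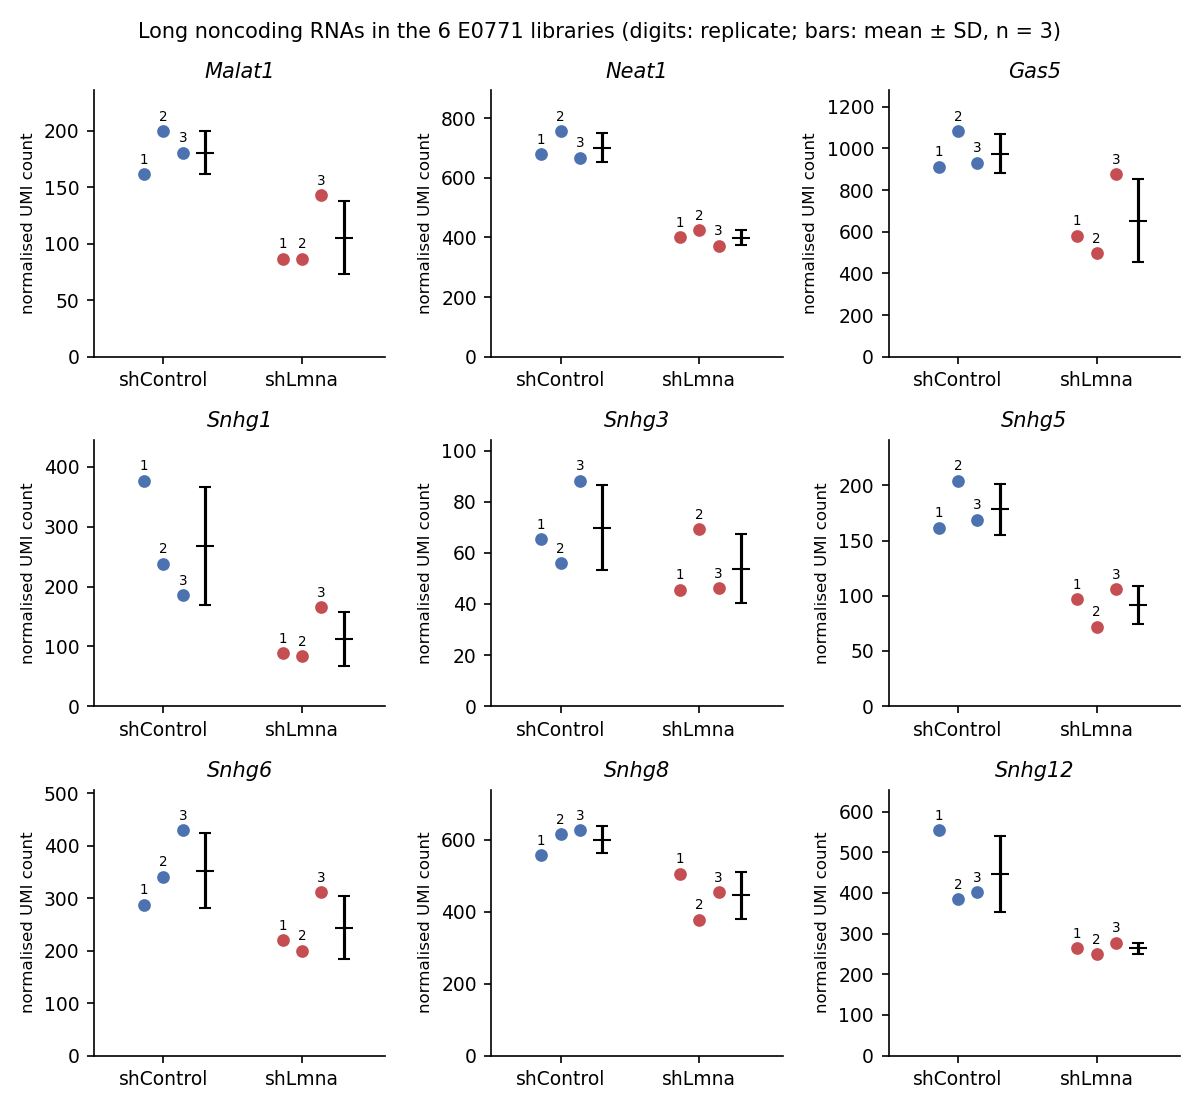
Normalised UMI counts (vertical axes, from 0) of the 9 long noncoding RNAs in the shControl and shLmna libraries, 1 point per library with its replicate number, and the mean with SD beside each group (n = 3). For Neat1 and Snhg12 the shLmna points lie close together and far below the controls, while shLmna replicate 3 sits nearest to the controls for Malat1, Gas5 and Snhg1.

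Of the nuclear RNAs, Neat1 had the more closely grouped values. Neat1 (chr19:5824708-5845478, minus strand, single exon in GENCODE M21) had normalised counts of 678, 757 and 667 in shControl and 401, 425 and 373 in shLmna. Each shLmna value was well below the lowest control, and the means were 700.5 ± 48.9 and 399.6 ± 26.3 (SD, n = 3). The log2 fold change was -0.81 ± 0.14 (SE) with an edgeR adjusted p of 0.00129, and it stayed past the threshold in each of the 6 fits that left out 1 library.

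Malat1 (chr19:5795690-5802672, minus strand, single exon) fell by about the same amount but with more spread. Its normalised counts were 162, 199.6 and 181 in shControl and 86.6, 86.6 and 143 in shLmna. Replicates 1 and 2 of shLmna were nearly equal, while replicate 3 stood at 1.65 times their mean, though still under the lowest control. The means were 181 ± 18.9 and 105 ± 32.4 (SD, n = 3), the log2 fold change was -0.80 ± 0.20 (SE) and the edgeR adjusted p was 0.0167. The call was lost without shControl replicate 2 (adjusted p = 0.111), without shLmna replicate 1 (0.0888) or without shLmna replicate 2 (0.077). Without shLmna replicate 3 the log2 fold change was -1.06. At 93 to 257 UMIs per library, Malat1 was captured sparsely for an RNA known for its abundance, and where on the transcript these UMIs began was not tested.

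Malat1 and Neat1 lie 22035 bases apart on chromosome 19. Frmd8, the nearest counted gene on the Neat1 side of the pair, had means of 310 and 273 and did not pass the test (log2 fold change -0.19, edgeR adjusted p = 0.449).

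The snoRNA hosts made up the other 7 of the 9, and 4 of these 7 fell past the threshold, with a median log2 fold change of -0.59 over all 7. GENCODE M21 places 29 snoRNA gene entries inside them, 10 in Gas5, 8 in Snhg1, 5 in Snhg12, 2 each in Snhg3 and Snhg5 and 1 each in Snhg6 and Snhg8. Some entries overlap or repeat a name. The start sites of the hosts are shown because the 5′TOP run is the feature by which such RNAs are usually grouped. Each line gives 10 bases before the RefSeq start (GRCm38) and 25 bases from it, on the gene's strand, with the longest unbroken run of C and T that touches positions -5 to 15 in capitals, where the 11th base printed is the start. RefSeq gives Gas5 in 2 entries, and Malat1 is shown for comparison.
Snhg1 start, chr19:8723477-8723511, plus strand: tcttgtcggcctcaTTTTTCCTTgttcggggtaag
Snhg12 start, chr4:132308668-132308702, plus strand: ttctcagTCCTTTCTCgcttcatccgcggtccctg
Snhg5 start, chr9:88522873-88522907, minus strand: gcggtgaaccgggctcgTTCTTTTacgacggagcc
Snhg8 start, chr3:123508312-123508346, minus strand: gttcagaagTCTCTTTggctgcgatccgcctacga
Snhg3 start, chr4:132353662-132353696, minus strand: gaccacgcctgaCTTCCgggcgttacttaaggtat
Gas5 start, chr1:161035156-161035190, plus strand: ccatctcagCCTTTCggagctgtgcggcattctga
Gas5 other start, chr1:161034591-161034625, plus strand: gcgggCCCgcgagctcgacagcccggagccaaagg
Malat1 start, chr19:5802648-5802682, minus strand: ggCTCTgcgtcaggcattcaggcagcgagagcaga
The run was 9 bases long in Snhg1 and Snhg12, 7 in Snhg5 and Snhg8, 6 and 3 in the 2 entries of Gas5, 5 in Snhg3 and 4 in Malat1. A run of 5 or more was present in 45.2% of 32851 RefSeq promoters and in 44.3% of the 10251 that belong to genes of the count table, so its presence is common. The run spanned the start base in Snhg12, Snhg8 and the first Gas5 entry shown. It began after the start base in Snhg1, Snhg5 and Snhg3, and ended before it in the other Gas5 entry and Malat1. The match describes letters only. Snhg6 was not among the promoter entries used.

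Snhg1 (chr19:8723475-8726443, plus strand, 10 exons), which carries a set of C/D box snoRNAs in its introns, showed the largest change of the 9. Its normalised counts were 377, 238 and 186 in shControl and 88.4, 83.9 and 165 in shLmna. The groups came close, since the lowest control stood at 186 and shLmna replicate 3 at 165. The means were 267 ± 98.8 and 112 ± 45.6 (SD, n = 3), a 2.43-fold lower level with a log2 fold change of -1.28 ± 0.27 (SE) and an edgeR adjusted p of 0.0066. It passed the adjusted p of 0.05 in each fit that left out 1 library, with log2 fold changes from -1.63 without shLmna replicate 3 to -0.96 without shControl replicate 1. In that last fit it no longer met the 2-fold criterion. No gene on either strand overlapped its counted end in the annotation.

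Slc3a2, the heavy chain of the amino acid transporter complexes, lies 117 bases from Snhg1 and, apart from Malat1 and Neat1 themselves, was the only nearest counted gene of any of these RNAs that passed the test. It fell from 2181 ± 109 to 1474 ± 93.9 (SD, n = 3), with normalised counts of 2306, 2126 and 2110 in shControl and 1578, 1395 and 1449 in shLmna. The log2 fold change was -0.56 ± 0.13 (SE, edgeR adjusted p = 0.0105). Its groups were far apart for their spread, and shLmna replicate 3, high for Snhg1, lay between the other 2 for Slc3a2.

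Snhg5 (chr9:88521050-88522929, minus strand), host of Snord50a and Snord50b, had normalised counts of 162, 204 and 169 in shControl against 96.8, 72.1 and 106 in shLmna. The groups were clearly apart, and the level was 1.97-fold lower. The means were 178 ± 22.8 and 91.5 ± 17.4 (SD, n = 3) and the log2 fold change -0.98 ± 0.19 (SE, edgeR adjusted p = 0.00321). Each fit that left out 1 library kept it past the threshold, at adjusted p values up to 0.04.

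Snhg12 (chr4:132308623-132311024, plus strand), host of Snora44, Snora61, Snora16a and Snord99, had 554, 385 and 402 normalised counts in shControl and 263, 249.9 and 277 in shLmna. The knockdown libraries were nearly equal, and shControl replicate 1 stood at 1.41 times the mean of the other controls. The means were 447 ± 93.4 and 264 ± 13.8 (SD, n = 3), with a log2 fold change of -0.76 ± 0.16 (SE) and an edgeR adjusted p of 0.00657. It also kept its call without any 1 library, with an adjusted p of at most 0.032.

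Gas5 (chr1:161034422-161038539, plus strand), named for its accumulation in growth-arrested cells, had normalised counts of 911, 1083 and 932 in shControl and 581, 498 and 877 in shLmna. Replicate 3 of shLmna was only a little under the lowest control, at 1.63 times the mean of the other 2. The means were 975 ± 93.8 and 652 ± 199 (SD, n = 3), the log2 fold change was -0.59 ± 0.19 (SE) and the edgeR adjusted p was 0.048. Of the 6 calls, this one held under the fewest alternatives. It was lost without shControl replicate 1 (adjusted p = 0.0579), shControl replicate 2 (0.202), shLmna replicate 1 (0.15) or shLmna replicate 2 (0.184), and kept without shControl replicate 3 (0.028) or shLmna replicate 3 (0.00992). Its counted end held 36.1% GC, the lowest of the 9, against a median of 47.2% over the counted ends of all genes, and with a correction for GC content its log2 fold change was -0.97 (adjusted p = 0.00307). Part of its counted end overlapped annotated snoRNA entries on the same strand, Snord78 among them. The GC share, its correction and this overlap rest on 1 annotated transcript, Gas5-218, of 4 exons and 2556 bases. The form of Gas5 that was counted can differ from it.

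The other 3 hosts had negative fold changes that did not pass. Snhg6 (chr1:9941959-9944118, minus strand), host of Snord87, had 287, 341 and 429.7 normalised counts in shControl and 219.7, 199.7 and 312 in shLmna, so shLmna replicate 3 lay above the lowest control. Its log2 fold change was -0.54 ± 0.19 (SE, n = 3 per group, edgeR adjusted p = 0.0773), and it passed without shControl replicate 1 (0.0473) or shLmna replicate 3 (0.0447). Snhg8 (chr3:123507552-123508404, minus strand), host of Snora24, had 558, 617 and 627 in shControl and 506, 378 and 454 in shLmna. The groups did not overlap, yet the change was small at -0.43 ± 0.15 (SE, edgeR adjusted p = 0.0659), and it passed without shLmna replicate 1 (0.0484). Snora24 covers 130 of the 776 bases of the counted end of Snhg8, on the same strand.

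Snhg3 (chr4:132348014-132353686, minus strand), host of Snora73a and Snora73b, had the lowest counts, 35 to 76 UMIs per library. Its normalised counts were 65.3, 55.9 and 88.3 in shControl and 45.6, 69.3 and 46.2 in shLmna, with overlapping groups. The log2 fold change was -0.34 ± 0.24 (SE, n = 3 per group, edgeR adjusted p = 0.38), and no fit that left out a library brought it past the threshold. Snhg3 shares 19 bases of its counted end with Rcc1, on the same strand. Rcc1, the exchange factor of the Ran GTPase, had means of 820 and 612 (-0.42, edgeR adjusted p = 0.0553). Snhg3 also shares bases with a gene on the opposite strand, as Snhg6 does with Mcmdc2, and whether the counting used strand is not given in the sources used here, so both are uncertain. Snhg3 lies 37.0 kb from Snhg12 by these coordinates.

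**Figure D2:**
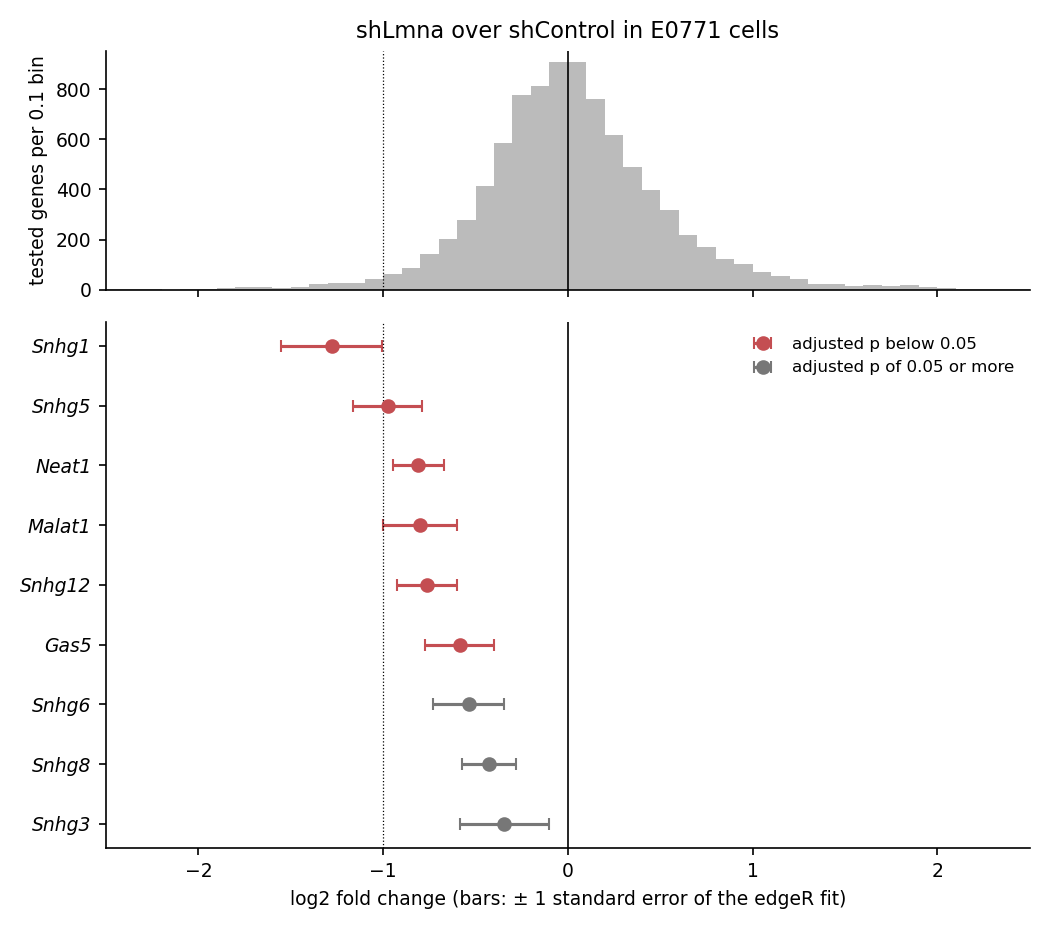
Top, histogram of the log2 fold changes (shLmna over shControl) of the tested genes in bins of 0.1, with the few genes beyond the axis left out. Bottom, the 9 long noncoding RNAs on the same axis with the standard error of the edgeR fit, with the dotted line at a 2-fold decrease. All 9 points lie left of 0, and Snhg1 alone lies left of the dotted line.

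The libraries of a group did not vary alike in every RNA. For 6 of the 9 RNAs shLmna replicate 3 was the highest of its group and for 6 of the 9 shLmna replicate 2 was the lowest. How often the tested genes as a whole took this order was not tested. Replicate 3 stood at 1.92 times the mean of the other 2 for Snhg1, a ratio that 1.04% of tested genes exceeded, and at 1.65 times for Malat1 (2.9% above) and 1.63 times for Gas5 (3.13% above). For Snhg6 it stood at 1.49 times (5.75% above) and for Snhg5 at 1.25 times (16.2% above). For Snhg3 it stood at 0.805 times, for Neat1 at 0.902 times, for Snhg8 at 1.03 times and for Snhg12 at 1.08 times. The median over the tested genes was 0.99. In shControl, replicate 1 was the highest for Snhg1, at 1.78 times the mean of the others, and for Snhg12, and the lowest for 5 of the 9.

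**Figure D3:**
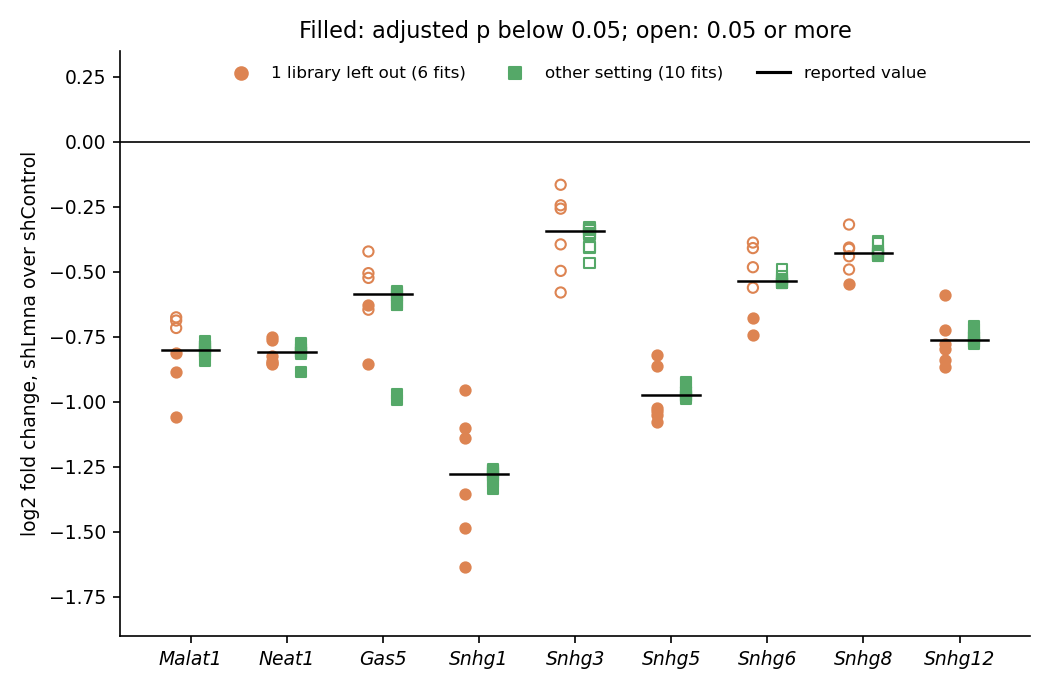
Log2 fold changes of each RNA with 1 library left out (circles, 6 fits) and under 10 other settings (squares), filled where the adjusted p was below 0.05, with the reported value as a bar. No point reaches 0, Neat1, Snhg1, Snhg5 and Snhg12 are filled throughout, and the squares of Gas5 near -0.97 are the fits with the GC correction.

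Genes related to these RNAs by role or position were taken from 9 lists. In these, 10 of 103 tested entries passed in the lower direction (9.71%) and 2 in the higher direction (1.94%), beside 5.78% and 7.96% of all tested genes. Nop56 stands in 2 of the lists and is counted in each. Of the other noncoding snoRNA hosts, 5 were tested and 1 fell. Snhg9 went from 303 ± 17.5 to 159 ± 53.9 normalised counts (SD, n = 3; log2 fold change -0.93, edgeR adjusted p = 0.00898), a call lost without shLmna replicate 3 (adjusted p = 0.051). The other 4 lay between -0.38 and 0.45. Of 6 other long noncoding RNAs tested, none passed in edgeR, DESeq2 or limma-voom, and their median was -0.33. At an unadjusted p under 0.05 there were 2 in edgeR, Firre (14.2 and 24.2) and Rpph1 (159 and 112). In other edgeR fits, 1 of the 6 passed as lower without shLmna replicate 3, and 1 with the GC correction and the replicate number as a block. Of 28 tested protein-coding hosts of snoRNAs, 1 fell. This was Hspa8, the constitutive Hsc70 chaperone, at 12277 in shControl and 7152 in shLmna (-0.78, edgeR adjusted p = 0.0029), and the median of the 28 was -0.12.

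The proteins that hold mature snoRNAs in the nucleolus gave 1 call among 8, in a direction that 5.78% of all tested genes took past the threshold, so a single call tells little of the list. Nhp2, a core protein of H/ACA particles, fell from 2162 ± 205 to 1218 ± 102 (SD, n = 3; log2 fold change -0.83, edgeR adjusted p = 0.0012). Fbl, the methyltransferase of C/D particles, had means of 549.7 in each group, and Nop58 had 777 and 781. Of 9 tested factors that assemble or mature the particles, all had negative fold changes with a median of -0.44 and 2 passed. Tgs1, which adds the trimethyl cap to small RNAs, was at 40.9, 37.3 and 21.1 in shControl and 12.1, 10.0 and 18.5 in shLmna (-1.36, edgeR adjusted p = 0.016). Ruvbl1, an ATPase of the R2TP complex, had means of 669.6 and 466 (-0.52, edgeR adjusted p = 0.0204). Each of these calls was lost in 4 of the 6 fits that left out 1 library, Tgs1 without shControl replicate 1 or 2 or shLmna replicate 1 or 2 and Ruvbl1 without shControl replicate 1 or 2 or shLmna replicate 2 or 3.

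Nonsense-mediated decay factors, which degrade the spliced hosts, gave 1 call among 14, a share near the 5.78% of all tested genes that passed lower. Eif4a3, the exon junction helicase, had means of 1509 and 1088 (log2 fold change -0.47, edgeR adjusted p = 0.0411) and passed in 2 of the 6 fits that left out a library (those without shControl replicate 3 or shLmna replicate 3). Upf1, the central helicase of the pathway, had 89.2 and 87.3 (-0.021, edgeR adjusted p = 0.964).

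Proteins of paraspeckles and of nuclear speckles gave calls in both directions. Of 14 tested paraspeckle proteins, 2 fell and 1 rose, with a median of 0.014. Pspc1, a core paraspeckle protein, had means of 110 and 66.7 (log2 fold change -0.71, edgeR adjusted p = 0.0313), Rbm14 had 227 and 155 (-0.55, adjusted p = 0.0344) and Taf15 had 26.5 and 49.5 (0.95, adjusted p = 0.0376). With the GC correction the log2 fold change of Pspc1 was -1.38 (adjusted p = 0.000368). None of these 3 passed with DESeq2, and Pspc1 passed in 3, Rbm14 in 2 and Taf15 in 1 of the 6 fits that left out a library. Sfpq and Nono, the essential pair of paraspeckles, had means of 432 and 567 (0.40, edgeR adjusted p = 0.0925) and of 675 and 584 (-0.21, adjusted p = 0.33). Of 13 tested speckle proteins, Srrm2, a scaffold protein of speckles, fell (278 and 180, -0.62, edgeR adjusted p = 0.0129) and Pnn rose (121 and 183, 0.61, adjusted p = 0.0442). The Srrm2 call was lost without shControl replicate 2, shLmna replicate 2 or shLmna replicate 3. Pnn passed in 1 of the 6 fits that left out a library, and its fold change turned negative with the GC correction.

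**Figure D4:**
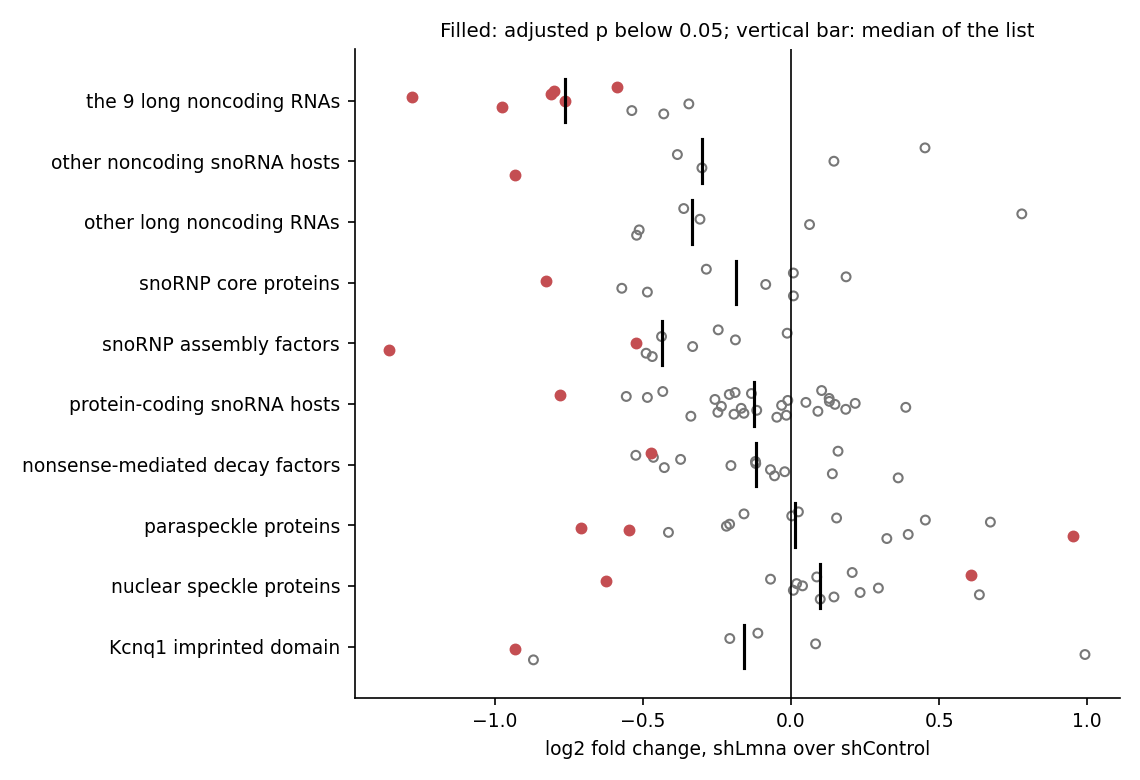
Log2 fold changes (horizontal axis, shLmna over shControl) of the tested genes of each list, 1 point per gene, filled where the adjusted p was below 0.05, with the median of the list as a bar. The median of the 9 long noncoding RNAs is -0.76, and the medians of the other 9 lists plotted, which leave out the cell type markers, lie between -0.44 and 0.099.

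In the imprinted domain of Kcnq1ot1, 6 genes were tested and 1 fell, beside 5.78% of all tested genes. Phlda2, a maternally expressed growth restraint of the placenta, went from 311 to 164 normalised counts (log2 fold change -0.93, edgeR adjusted p = 0.00121) and kept its call without any 1 library. Slc22a18, the nearest counted gene at the higher coordinate, had 9.24 and 20.3 (0.99, edgeR adjusted p = 0.139). The snoRNAs themselves could not be followed. Of the entries inside the hosts, Snord22, Snora44 and Snord99 had rows, with 0 to 8 UMIs per library, and none was tested.

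For each RNA, the tested genes with the most similar profile over the 6 libraries were found by the root-mean-square difference between log2 CPM values centred on each gene's mean. Snhg1 was nearest to Tgs1, at 0.193, and then to Mfsd2a, at 0.198, both farther than the nearest profile of any other of the 9. Neat1 was nearest to Cdc25a (0.0649), Snhg5 to Gpam (0.0602), Snhg12 to Ddx20 (0.0828), Snhg8 to Mlx (0.0617), Snhg6 to Cetn2 (0.0882) and Snhg3 to Morf4l2 (0.073). Malat1 and Gas5 had the same nearest gene, 1700001O22Rik, at 0.0644 and 0.0772. With 6 libraries and 8969 genes these are descriptions of likeness.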

How the data were processed

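The 9 RNAs were analysed in 6 MARS-seq libraries (3 shControl, 3 shLmna), grouped by their labels. The authors trimmed reads with cutadapt, mapped them to mm10 with STAR 2.4.2a and counted UMIs with a modified HTSeq-count in the last 1000 bases of RefSeq genes and 100 bases downstream. These deposited counts are whole numbers without normalization. The authors' DESeq2 comparison and their batch-corrected values were deposited too and not used.

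The counts entered edgeR 4.0.16 in R 4.3.3 (filterByExpr, minimum count 10, TMM scaling, quasi-likelihood test, Benjamini-Hochberg adjustment). Normalised counts are UMIs over each library's TMM-scaled size, brought to the mean size. DESeq2 1.42.0, limma-voom (limma 3.58.1), other scalings and filters, thinned counts, a GC correction, a replicate block and leaving out each library were alternatives. The scripts were tested on simulated data. Replicates of a group differed from each other by more than sampling noise (chi-square per degree of freedom of 5.11 to 8.28).

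The members and lists were chosen with earlier results of these data known. Each member found is named. List members past the threshold (at most 5) and up to 3 others, adjacent genes past it, and the 2 nearest profiles could be named. Frmd8, Rcc1 and Slc22a18 were named outside the rule, for their position and after their values were seen. Annotation came from GENCODE M21 and RefSeq (GRCm38), whose transcripts can differ from those counted. A transcript was matched to 10473 of 10520 genes. Some results are not reported here.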

Additional observations from a re-analysis of the deposited data

How the results depend on the processing

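All 9 fold changes were negative under each of the 16 alternatives, and of the 144 refits of single RNAs 129 kept their side of the threshold, 10 lost the call (3 for Malat1 and 7 for Gas5) and 5 gained it (4 for Snhg6 and 1 for Snhg8). Without leaving out a library, 5 to 7 of the 9 RNAs passed in the lower direction, and between 4 and 7 did with 1 library left out. Gas5 was lost with upper-quartile scaling (adjusted p = 0.0554), with no filter on low counts (0.0541) and with a mean count of at least 50 (0.0656). The number that also met the 2-fold criterion was 1 with all libraries and 1 to 3 with 1 library left out, reaching 3 (Malat1, Snhg1 and Snhg5) without shLmna replicate 3. Without shControl replicate 1 it was Snhg5 in place of Snhg1.

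With the replicate number as a block, 7 RNAs passed, Snhg6 being added (edgeR adjusted p = 0.0239), and 577 of all genes were lower. Whether the numbers pair the libraries is unresolved. The correlations of same-numbered deviations were 0.352 for replicate 1, -0.115 for replicate 2 and 0.00519 for replicate 3.

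Over all genes, 518 lower and 714 higher calls became 187 and 353 without shControl replicate 2, 231 and 420 without shLmna replicate 3, 263 and 494 without shLmna replicate 2, and 296 and 498 without shControl replicate 1. The GC correction gave 773 lower and 724 higher. With a mean count of at least 50, genes past the 2-fold criterion numbered 46 lower and 112 higher, against 156 and 356, over fewer genes tested. Snhg3 had the fewest UMIs of the 9, 35 to 76 per library, and whether depth kept it from passing was not tested.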
